A study of Caenorhabditis elegans with 15 samples.

Results

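The HSP70 family of Caenorhabditis elegans was examined by the cell compartment in which each member works. Its 9 genes were chosen by name and not by a threshold on measured values, but with earlier results of these data known. hsp-70, F44E5.4, F44E5.5, hsp-1 and hsp-110 act in the cytosol, hsp-3, hsp-4 and stc-1 in the endoplasmic reticulum (ER) and hsp-6 in the mitochondrion. The array annotation names 26173 genes in all. The members were represented by 9 of the 29317 probe sets on the array, a probe set being the group of short probes that gives 1 value for a gene. hsp-70, hsp-1, hsp-110, hsp-3, hsp-4, stc-1 and hsp-6 had 1 probe set each. F44E5.4 and F44E5.5 shared 2 probe sets, each annotated to both genes, so that the pair could not be separated. These are named the brighter and the dimmer F44E5.4/F44E5.5 probe set here, by their mean value over the arrays.

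Wild-type N2 young adult worms were incubated for 6 h at 20 °C in M9 buffer, and RNA of whole worms was measured on Affymetrix Gene 1.0 ST arrays for this species. Worms received fraction H3, which consists of oligomeric procyanidins from the leaves of Combretum mucronatum, in concentrations of 0.02 (H3 0.02), 0.2 (H3 0.2) and 2 mg/mL (H3 2), or the crude hydro-ethanolic leaf extract (RE). The control received the DMSO solvent, which the test solutions contained as well. Each of the 5 groups had 3 arrays, which the study describes as biological replicates. For RE the sample titles and the paper give 0.2 mg/mL whereas another sample label gives 2 mg/mL, so that RE was set beside both H3 0.2 and H3 2. Whole worms mix all tissues, and a change in the share of a tissue cannot be told apart from a change in RNA per cell.

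HSP70 proteins are chaperones that bind stretches of unfolded protein and release them in a cycle driven by ATP. J-domain proteins deliver the clients and stimulate the ATPase, and nucleotide exchange factors such as HSP110 and BAG-domain proteins reset the cycle. Each compartment has its own members and its own stress pathway. The heat shock response, with the transcription factor HSF-1, raises inducible cytosolic members. The unfolded protein responses of the ER and of the mitochondrion raise hsp-4 and hsp-6, which are widely used as reporters of these pathways in worms.

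In the RefSeq annotation of assembly WBcel235 the members lie apart on 6 chromosomes, except for 1 adjacent pair. hsp-70 is on chromosome I (9320325 to 9322519), hsp-110 on chromosome III (8443910 to 8446909) and hsp-1 on chromosome IV (17278959 to 17281330). Chromosome II holds hsp-4 (7350119 to 7352518) and stc-1 (8563713 to 8566139). hsp-6 is on chromosome V (4824124 to 4826760) and hsp-3 on chromosome X (6089033 to 6091785). F44E5.4 (11757107 to 11759311) and F44E5.5 (11759662 to 11761861) are neighbours on chromosome II, 350 bases apart.

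All values are log2 expression values. The median of all probe sets on an array was 3.54 to 3.65, and nothing shows that a probe set below it rose above background. Calls came from 1 limma fit over the 15 arrays. They required a fold-change of at least 2 and a p of at most 0.05 after Benjamini-Hochberg adjustment over all 29317 probe sets. With 3 arrays per group the precision is limited. The first principal component of all probe sets (52.0% of the variance) divided the arrays into set A (8 arrays) and set B (7 arrays), a division that the labels do not explain. Because the sets were drawn from these same values, an adjusted p from a fit with the set as a block can be too small. Set A holds replicate 1 of every group and replicate 2 of H3 0.02, H3 2 and the control. Set B holds the other arrays, among them 1 control array. The median of 8 intestine markers was 9.08 to 9.43 on set B arrays and 10.13 to 10.56 on set A arrays, and that of 7 germline and oocyte markers was 10.28 to 11.01 on set B arrays and 9.41 to 9.98 on set A arrays. All 15 of these markers lay above the array median on every array. By group, the intestine median ranged from 9.08 to 10.23 over the treated groups and from 9.23 to 10.56 in the control. The germline and oocyte median ranged from 9.41 to 11.01 over the treated groups and from 9.72 to 10.48 in the control. The sets separated these markers, whereas treated and control groups overlapped. The highest intestine median was that of a control array, and groups were not compared within the sets. The median of 5 hypodermis markers also followed the sets (5.27 to 6.02 on set B arrays, 7.11 to 8.07 on set A arrays). That of 5 pharynx markers was 7.81 to 8.0 in H3 2 and 7.53 to 7.90 in the other treated groups, against 6.90 to 7.67 in the control, and its part in the comparisons with the control was not tested. The median of 6 early embryo markers was 2.18 to 2.89 in the treated groups and 2.15 to 2.20 in the control, below the array median throughout.

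The clearest response in the family was that of F44E5.4/F44E5.5, the heat-inducible cytosolic HSP70 pair. The brighter probe set rose 8.1-fold to 11.4-fold and was the only one called in all 4 comparisons with the control. The housekeeping cytosolic member hsp-1, the ER members hsp-3 and hsp-4 and the mitochondrial member hsp-6 were not called in any comparison, and none of their fold-changes exceeded 1.32. The cytosolic members hsp-110 (1.32-fold to 1.49-fold) and hsp-70 (1.16-fold to 1.31-fold) were not called either. stc-1 lay lower on every treated array than on any control array and was also not called.

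The brighter F44E5.4/F44E5.5 probe set had log2 values of 7.73, 7.22 and 5.90 in H3 0.02. The values were 7.04, 6.70 and 6.70 in H3 0.2, 6.54, 5.95 and 6.90 in H3 2, and 6.72, 7.28 and 6.37 in RE, against 3.30, 3.28 and 3.75 in the control. Every treated array lay far above every control array, and the largest spread within a group was in H3 0.02. All 12 treated arrays were above their array median but only 1 of the 3 control arrays was, so that the folds can be understated. The log2 fold-change was 3.51 at H3 0.02 (adjusted p = 0.000722), 3.37 at H3 0.2 (adjusted p = 0.000652), 3.02 at H3 2 (adjusted p = 0.00126) and 3.35 in RE (adjusted p = 0.00071), each with a standard error of 0.40 by limma. These correspond to folds of 11.4, 10.3, 8.1 and 10.2. Within the array sets the treated mean exceeded the control mean by 3.58 in set A and by 2.89 in set B. The gap between the sets was widest at H3 0.02, with 4.18 in set A alone and 2.15 in set B alone, so that the 11.4-fold at this dose averages unlike values. With only the 6 arrays of H3 0.02 and the control in the fit, the adjusted p at H3 0.02 was 0.0882 by limma. In set B, where the control, H3 0.02 and H3 2 have 1 array each and H3 0.2 and RE have 2, the log2 differences were 2.15, 2.95, 3.15 and 3.08 at H3 0.02, H3 0.2, H3 2 and in RE, and no call was made at this number of arrays (adjusted p of 0.162 to 0.666 by limma).

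The dimmer probe set of the same pair had log2 values of 1.82, 1.42 and 1.48 in H3 0.02. It had 2.04, 2.43 and 2.32 in H3 0.2, 1.76, 1.89 and 1.80 in H3 2, and 1.67, 1.86 and 1.66 in RE, against 1.08, 1.21 and 1.33 in the control. H3 0.2 was the highest group, and all treated arrays lay above all control arrays, but every value was below the array median. Neither side was thus shown to be above background, and the size of the difference is not settled. The log2 fold-change was 1.06 at H3 0.2 (adjusted p = 0.00174 by limma) and was called. At H3 2 it was 0.61 (adjusted p = 0.0411 by limma), which passed the adjusted p but not the 2-fold threshold. Of the 6 omissions of a single array, only that of control replicate 3 kept this pass (adjusted p = 0.0459 by limma), the others giving 0.0847 to 0.169, and centring each array on its median gave 0.0605. At H3 0.02 and in RE it was 0.37 and 0.52 and did not pass. The call at H3 0.2 rested on single arrays, since the log2 fold-change was 0.99 without control replicate 1 and 0.97 without H3 0.2 replicate 2. Which of the genes each probe set reads is not given in the annotation.

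hsp-70, the other heat-inducible cytosolic member, stayed low. Its log2 values were 2.01, 2.34 and 2.26 in H3 0.02, 1.95, 2.13 and 2.01 in H3 0.2, 2.22, 2.26 and 2.04 in H3 2, and 2.28, 1.98 and 2.08 in RE, against 1.97, 1.66 and 1.81 in the control. H3 0.2 replicate 1 lay below the highest control array, so that the groups overlapped. No array reached its array median, so that hsp-70 was not shown to lie above background in any group. The log2 fold-changes of 0.22 to 0.39 did not pass (adjusted p of 0.242 to 0.67 by limma).

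hsp-1, the constitutive cytosolic HSP70, had 12.03, 12.14 and 12.08 in H3 0.02, 12.09, 12.14 and 12.09 in H3 0.2, 12.15, 12.12 and 12.21 in H3 2, and 12.09, 12.09 and 12.21 in RE, against 11.68, 11.83 and 12.03 in the control. Treated arrays lay within a narrow band just above the highest control array. Its log2 fold-changes were 0.24, 0.26 and 0.31 at H3 0.02, H3 0.2 and H3 2 and 0.28 in RE, none of which passed (adjusted p of 0.196 to 0.69 by limma). The 95% confidence intervals, which reached from 0.00 to 0.55 over the 4 comparisons, leave out a 2-fold change.

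hsp-110, an HSP70 relative that serves as nucleotide exchange factor, had 10.35, 10.57 and 10.62 in H3 0.02, 10.50, 10.77 and 10.69 in H3 0.2, 10.57, 10.63 and 10.88 in H3 2, and 10.46, 10.77 and 10.77 in RE, against 9.82, 10.15 and 10.38 in the control. Only H3 0.02 replicate 1 was below the highest control array, which belongs to set B whereas that treated array belongs to set A. Within each set the treated and control arrays did not overlap. Set A has only 2 control arrays and set B only 1, and the share of all probe sets that were apart in this way was not counted. The log2 fold-changes were 0.40, 0.54, 0.58 and 0.55 at H3 0.02, H3 0.2, H3 2 and in RE and did not pass (adjusted p of 0.0919 to 0.601 by limma). A block for the array set, which was drawn from these same arrays, gave values of 0.40, 0.45, 0.58 and 0.46 (adjusted p of 0.0814, 0.0335, 0.00488 and 0.0311 by limma). All but H3 0.02 thus passed the adjusted p while remaining under 2-fold. With the replicate number as a block the adjusted p was 0.0286 at H3 0.2, 0.0148 at H3 2 and 0.0271 in RE by limma.

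**Figure D1:**
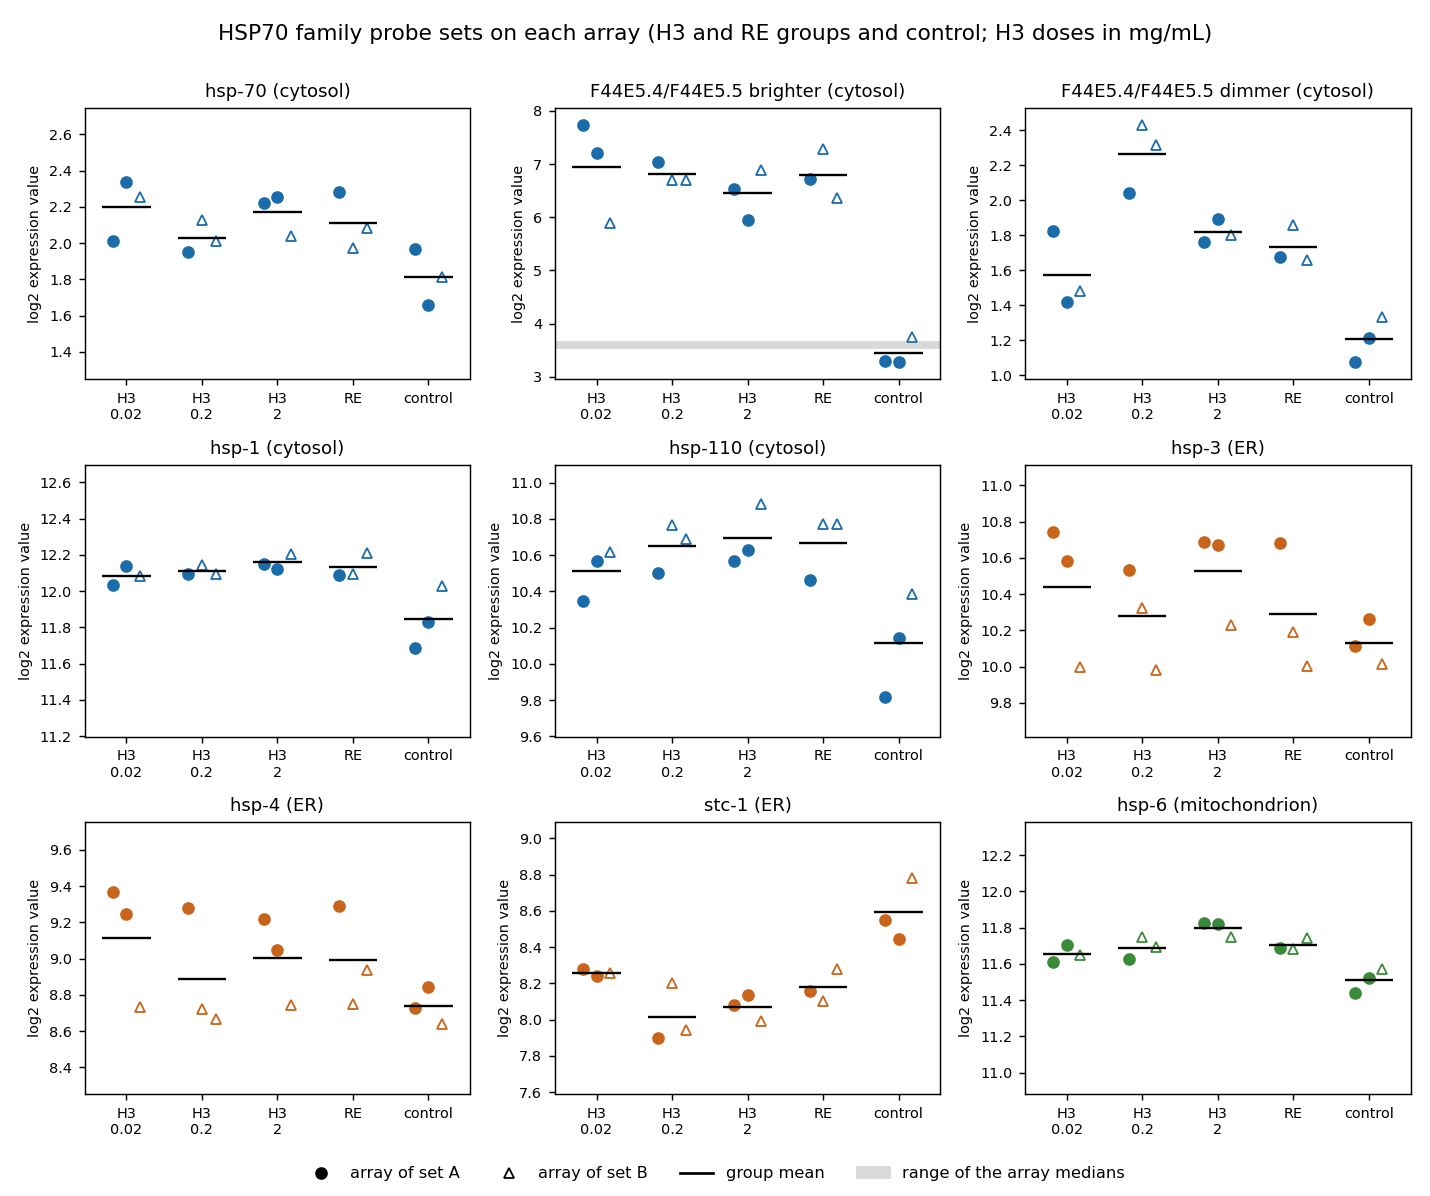
Log2 expression value of the 9 HSP70 family probe sets on each of the 15 arrays, by group (H3 doses in mg/mL), with filled circles for set A, open triangles for set B and a bar for the group mean. The brighter F44E5.4/F44E5.5 probe set lies at 5.90 to 7.73 in the treated groups, against 3.28 to 3.75 in the control, and hsp-3 and hsp-4 follow the array set within the treated groups; each panel has its own vertical range.

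The ER members hsp-3 and hsp-4 are the worm orthologues of BiP, the chaperone of the ER lumen. hsp-3 had 10.75, 10.58 and 9.996 in H3 0.02, 10.53, 10.33 and 9.98 in H3 0.2, 10.69, 10.67 and 10.23 in H3 2, and 10.68, 10.19 and 10.01 in RE, against 10.12, 10.26 and 10.02 in the control. hsp-4 had 9.37, 9.24 and 8.74 in H3 0.02, 9.28, 8.72 and 8.67 in H3 0.2, 9.22, 9.05 and 8.74 in H3 2, and 9.29, 8.75 and 8.93 in RE, against 8.73, 8.84 and 8.64 in the control. In the treated groups the high values were those of set A and the low values those of set B, and the treated and control groups overlapped for both genes. The log2 fold-changes were 0.31, 0.15, 0.40 and 0.16 for hsp-3 and 0.38, 0.15, 0.26 and 0.25 for hsp-4 at H3 0.02, H3 0.2, H3 2 and in RE. None passed (adjusted p of 0.553 to 1 for hsp-3 and of 0.727 to 0.906 for hsp-4 by limma). H3 0.2 and RE have most arrays in set B, and the control has most in set A. With a block for the array set, the values at H3 0.2 and in RE were 0.30 and 0.31 for hsp-3 and 0.30 and 0.40 for hsp-4, which also did not pass (adjusted p of 0.0795 to 0.243 by limma).

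stc-1, whose human counterpart STCH lacks the client-binding part of a typical HSP70, was the only gene of the family with lower values after treatment. It had 8.28, 8.24 and 8.26 in H3 0.02, 7.90, 8.20 and 7.94 in H3 0.2, 8.08, 8.13 and 7.99 in H3 2, and 8.16, 8.10 and 8.28 in RE, against 8.55, 8.44 and 8.78 in the control. All treated arrays lay below all control arrays. The log2 fold-change was −0.58 at H3 0.2 (adjusted p = 0.0349 by limma) and −0.52 at H3 2 (adjusted p = 0.0426 by limma), so that stc-1 passed the adjusted p but not the 2-fold threshold. At H3 0.02 and in RE it was −0.33 and −0.41 and did not pass. Leaving out single arrays ended the pass at H3 2 in each of 6 fits (adjusted p of 0.0582 to 0.126 by limma). At H3 0.2 only the fit without H3 0.2 replicate 2 kept it (adjusted p = 0.0343 by limma), and the others gave an adjusted p of 0.0554 to 0.134. Centring each array on its median gave an adjusted p of 0.0894 at H3 0.2 and 0.0762 at H3 2 by limma. The block for the array set, which was drawn from these same arrays, in contrast gave −0.60 at H3 0.2 (adjusted p = 0.00789 by limma) and brought RE to 0.0483.

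hsp-6, the mitochondrial HSP70 that draws proteins through the inner membrane and folds them, had 11.61, 11.70 and 11.65 in H3 0.02, 11.63, 11.75 and 11.70 in H3 0.2, 11.83, 11.82 and 11.75 in H3 2, and 11.69, 11.68 and 11.74 in RE, against 11.44, 11.52 and 11.57 in the control. Treated arrays lay above control arrays throughout, by a small margin at H3 0.02 and H3 0.2 and with the highest mean at H3 2. The log2 fold-changes were 0.14, 0.18, 0.29 and 0.19 at H3 0.02, H3 0.2, H3 2 and in RE, and none passed (adjusted p of 0.168 to 0.961 by limma). The upper bound of the 95% confidence intervals was 0.50 at most.

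Counted over the family, 1 of the 9 probe sets was called at H3 0.02 (0.624% of all probe sets were called), 2 at H3 0.2 (1.1% of all), 1 at H3 2 (1.57% of all) and 1 in RE (0.935% of all). Each of these calls was that of an F44E5.4/F44E5.5 probe set, and each was higher after treatment. By the adjusted p alone, the counts were 1 at H3 0.02 (0.781% of all), 3 at H3 0.2 (1.6% of all), 3 at H3 2 (2.76% of all) and 1 in RE (1.41% of all), with stc-1 added at H3 0.2 (0.941% of all passed and were lower) and H3 2 (1.65% of all). The brighter F44E5.4/F44E5.5 probe set was among 76 probe sets, or 0.259% of all, that were called higher in each of the 4 comparisons, which share their 3 control arrays. All 12 treated arrays lay above all 3 control arrays for 4 of the 9 probe sets, namely both of F44E5.4/F44E5.5, hsp-1 and hsp-6 (1.99% of all probe sets), and below them for stc-1 (2.16% of all). The groups overlapped for hsp-70, hsp-110, hsp-3 and hsp-4. The median log2 fold-change of the 9 probe sets was 0.37, 0.22, 0.36 and 0.28 at H3 0.02, H3 0.2, H3 2 and in RE, whereas that of all probe sets lay between −0.005 and 0.023.

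**Figure D2:**
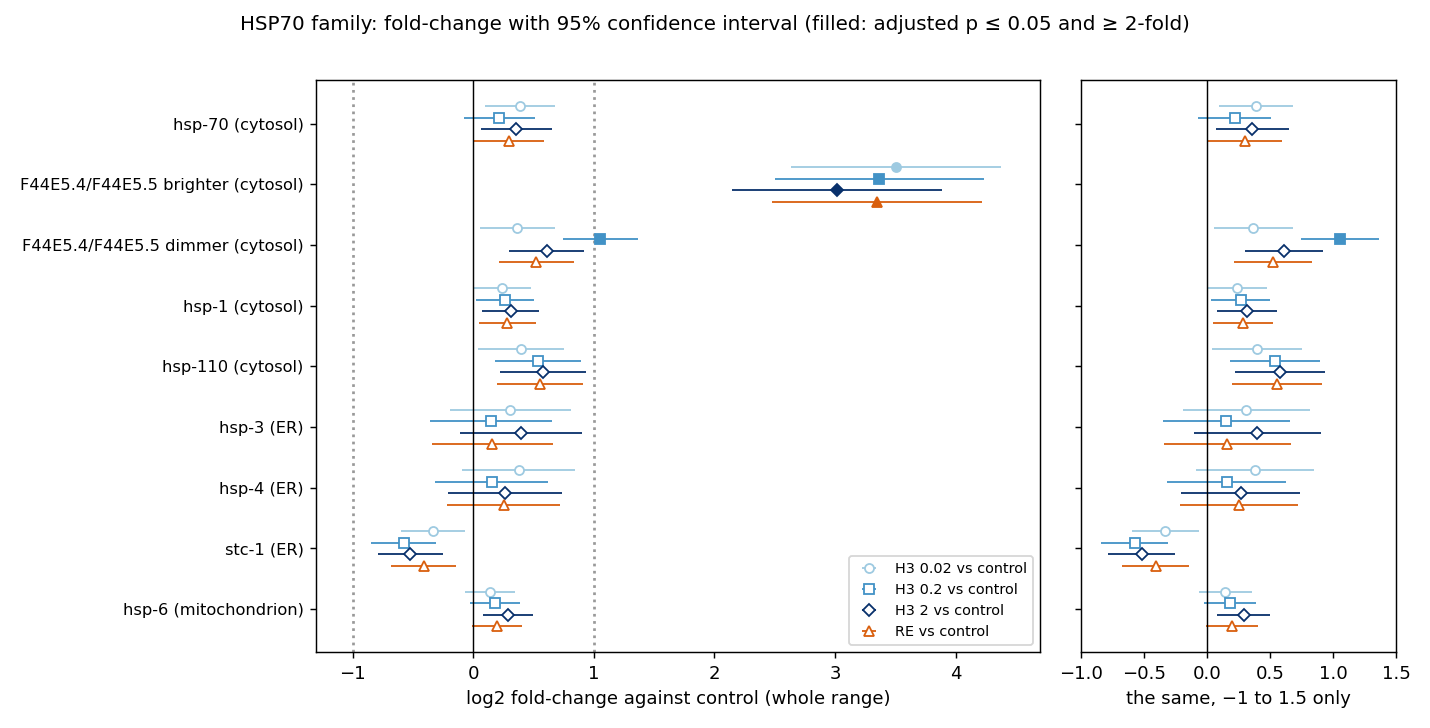
Log2 fold-change against the control of each HSP70 family probe set with its 95% confidence interval, for H3 0.02, H3 0.2, H3 2 and RE, over the whole range on the left and near 0 on the right, with filled symbols for called values and dotted lines at a 2-fold change. The intervals of the brighter F44E5.4/F44E5.5 probe set lie between 2.15 and 4.38, and those of stc-1 lie below 0.

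Whether the inducible pair responded more than hsp-1, hsp-4 and hsp-6, a member of each compartment, was tested within the arrays. The brighter F44E5.4/F44E5.5 probe set minus another member gave 1 value per array. Only the change of this difference between groups is read, since the probe sets differ in their own brightness. The difference from hsp-1 was −5.37 ± 0.55 on treated arrays and −8.40 ± 0.13 on control arrays (SD, n = 12 and 3), a shift of 3.04. From hsp-4 it was −2.25 ± 0.50 on treated arrays and −5.29 ± 0.35 on control arrays, a shift of 3.05. From hsp-6 it was −4.96 ± 0.57 on treated arrays and −8.07 ± 0.22 on control arrays, a shift of 3.11. In all 3 cases the treated and control arrays did not overlap, and the exact two-sided permutation test gave p = 0.0022 each, before and after Benjamini-Hochberg adjustment over the 3 tests, the smallest value that its 455 arrangements allow. With labels exchanged only within the array sets, the exact p was 0.0051, again the smallest possible. The members were chosen with earlier results known, and the brighter probe set alone already set treated and control arrays far apart. The 3 tests share this probe set and could hardly give another p, so that they add no support to the shifts. By the shifts alone, the brighter F44E5.4/F44E5.5 probe set changed more than hsp-1, hsp-4 and hsp-6 on the same arrays. Neither the dimmer probe set nor the other members were tested in this way.

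The H3 concentrations were compared with one another. None of the 9 probe sets was called between H3 0.2 and H3 0.02 (0% of all probe sets were called, 823 at an unadjusted p under 0.05), between H3 2 and H3 0.02 (0.0375% of all) or between H3 2 and H3 0.2 (0% of all, 1216 at an unadjusted p under 0.05). For the brighter F44E5.4/F44E5.5 probe set the log2 difference was −0.14 (95% confidence interval −1.01 to 0.73) for H3 0.2 minus H3 0.02, −0.49 (−1.36 to 0.38) for H3 2 minus H3 0.02 and −0.35 (−1.22 to 0.52) for H3 2 minus H3 0.2. Each interval reaches past a 2-fold decrease, so that equal responses at the 3 concentrations were not shown. The dimmer probe set was higher in H3 0.2 than in H3 0.02 by 0.69 (unadjusted p = 0.000373, adjusted p = 0.995 by limma), with all values below the array median.

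The crude extract RE and fraction H3 were compared in the same way, and none of the 9 probe sets was called between RE and H3 0.2 (0% of all probe sets, 652 at an unadjusted p under 0.05) or between RE and H3 2 (0% of all, 944 at an unadjusted p under 0.05). For the brighter F44E5.4/F44E5.5 probe set RE minus H3 0.2 was −0.02 (95% confidence interval −0.89 to 0.85), which leaves out a 2-fold difference, and RE minus H3 2 was 0.33 (−0.54 to 1.20), which does not. For hsp-1, RE minus H3 0.2 was 0.02 (−0.22 to 0.26) and RE minus H3 2 was −0.03 (−0.27 to 0.21). stc-1 was 0.17 (−0.10 to 0.43) for RE minus H3 0.2 and 0.11 (−0.16 to 0.38) for RE minus H3 2. The dimmer probe set was lower in RE than in H3 0.2 by an unadjusted p of 0.00277, which did not pass (adjusted p = 1 by limma).

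The values of hsp-3 and hsp-4 followed the array set. On average over all groups, set B minus set A was −0.45 for hsp-3 and −0.43 for hsp-4, and 0.28 for hsp-110. It was −0.14 to 0.09 for the other 6 probe sets. Since the sets were drawn from these same arrays, these differences are given without a test. Within set A the treated mean exceeded the control mean by 0.46 for hsp-3 and 0.46 for hsp-4, and within set B by 0.11 and 0.12. All 6 treated arrays of set A lay above both control arrays of set A for hsp-3 and hsp-4. In set A this also held for both F44E5.4/F44E5.5 probe sets, hsp-1, hsp-110 and hsp-6, with stc-1 below. For hsp-70 the arrays of set A overlapped. The share of all probe sets that were apart in this way was not counted, so that nothing is read from it about the family. For hsp-1 the same differences were 0.35 in set A and 0.11 in set B, for hsp-110 0.53 and 0.37, for hsp-6 0.23 and 0.14, and for stc-1 −0.36 and −0.65. The interaction of treatment and array set did not pass for any of the 9 probe sets (0.0205% of all passed; adjusted p of 0.718 to 0.987 by limma, lowest for hsp-4 with an unadjusted p of 0.0689). The intestine and germline markers moved with the same sets, and their part in the values of hsp-3 and hsp-4 was not tested.

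**Figure D3:**
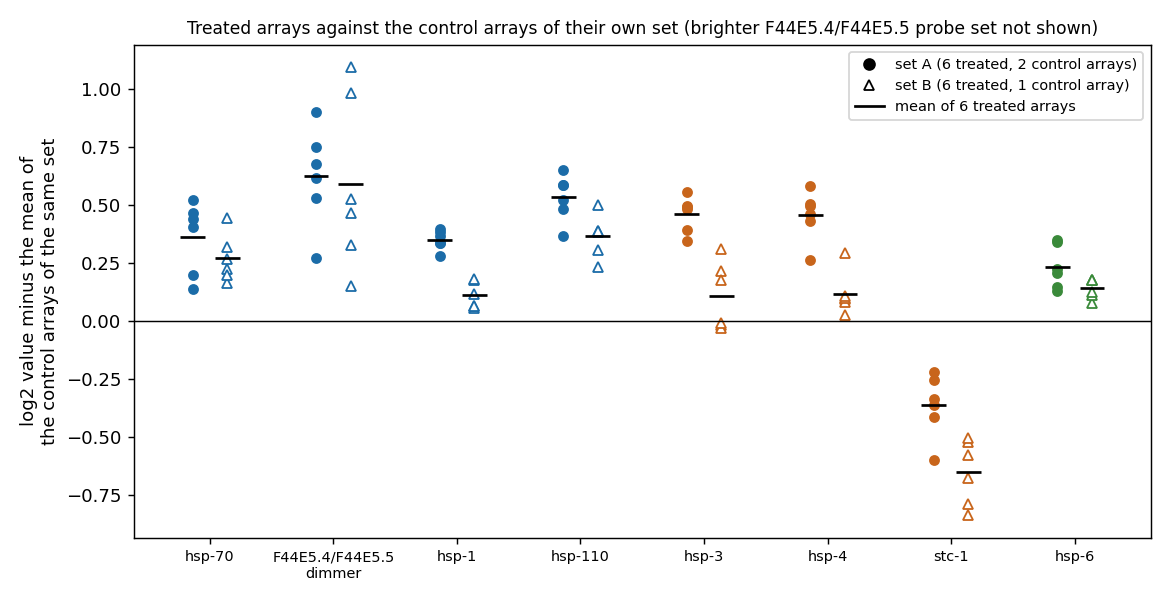
Log2 value of each treated array minus the mean of the control arrays of its own set, for 8 of the 9 HSP70 family probe sets (the brighter F44E5.4/F44E5.5 probe set, at 3.58 in set A and 2.89 in set B on average, is left out), with filled circles for set A, open triangles for set B and bars for the means. hsp-3 and hsp-4 average 0.46 in set A and 0.11 and 0.12 in set B, and stc-1 lies below 0 in both sets; set B has a single control array.

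Across the 15 arrays, hsp-1 and hsp-110 had a Pearson correlation of 0.93, and hsp-3 and hsp-4 one of 0.88. hsp-6 correlated with hsp-1 at 0.87. After each set was centred on its mean, these values were 0.95, 0.71 and 0.89. Centring also brought hsp-3 close to hsp-1 (0.17 before and 0.81 after), to hsp-110 (−0.05 before and 0.79 after) and to the brighter F44E5.4/F44E5.5 probe set (0.43 before and 0.79 after). hsp-4 likewise came to 0.83 with hsp-1 (0.21 before) and 0.84 with the brighter F44E5.4/F44E5.5 probe set (0.49 before), both above its value with hsp-3. These correlations describe 15 arrays that share groups and sets and carry no test.

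Outside the family, the probe sets of 1 gene most like the brighter F44E5.4/F44E5.5 probe set over the 15 arrays were T20D4.7, vsra-1, phdh-1, rrf-2 and asns-2, with Pearson correlations of 0.932 to 0.939. After centring of the sets they were cdr-4, Y94H6A.10, F52E4.5, scl-11 and B0563.9, with 0.955 to 0.975. The closest to hsp-1 was pde-12 on both scales (0.974 and 0.976). For hsp-4 it was M153.3 over the arrays (0.959) and C07A12.11 after centring (0.916). For hsp-6 it was letm-1 over the arrays (0.925), followed by lmtr-5 (0.92), ubql-1 (0.915), the J-domain gene dnj-1 (0.911) and cgp-1 (0.91). After centring rab-11.1 was the closest to hsp-6 (0.944), and dnj-1 was not among the 5 closest.

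The genes that work with HSP70 were described in 5 lists with 98 different genes or pairs. Of 26 genes or pairs of cytosolic heat shock and HSP90 machinery, 2 were called at H3 0.02, 3 at H3 0.2, 3 at H3 2 and 2 in RE, all of them higher (0.304%, 0.46%, 0.665% and 0.399% of all probe sets were called higher). Those called in all 4 comparisons were hsp-16.1/hsp-16.11 and hsp-16.48/hsp-16.49, small heat shock proteins that hold unfolding proteins until HSP70 can refold them. The hsp-16 genes were already picked by the study from these arrays, so that their rise is no independent evidence for the list. hsp-16.1/hsp-16.11 averaged 9.28 ± 0.16 in H3 0.02, 9.58 ± 0.03 in H3 0.2, 9.54 ± 0.19 in H3 2 and 9.17 ± 0.22 in RE, against 4.95 ± 0.64 in the control (SD, n = 3 each). This gave log2 fold-changes of 4.33, 4.63, 4.59 and 4.22 (adjusted p of at most 2.06e-06 by limma). hsp-16.48/hsp-16.49 had log2 fold-changes of 4.31, 4.43, 4.46 and 4.16 (adjusted p of at most 2.76e-07 by limma). For both pairs all control arrays were above the array medians, and no omission of a single array ended a call.

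The other calls of this list were less firm. hsp-16.2, annotated apart from these pairs, averaged 2.92 ± 0.41 in H3 0.2 against 1.79 ± 0.09 in the control (SD, n = 3 each), all below the array median. Its log2 fold-change of 1.13 (adjusted p = 0.00781 by limma) was 0.99 without H3 0.2 replicate 3. unc-23, which encodes a BAG-domain cochaperone of HSP70, averaged 8.67 ± 0.81 in H3 2 against 6.35 ± 0.60 in the control (SD, n = 3 each). The log2 fold-change was 2.32 (adjusted p = 0.0447 by limma), and of the 6 omissions of a single array only that of H3 2 replicate 3 kept the call, the other adjusted p-values being 0.0933 to 0.179. The call of unc-23 was kept with a block for the array set, which was drawn from these same arrays (adjusted p = 1.61e-06 by limma), and for the replicate number (0.00358). It was lost with only the 6 arrays compared (adjusted p = 0.128 by limma). At H3 0.02, H3 0.2 and in RE its log2 fold-changes were 1.60, 1.56 and 1.47, which were not called. The heat shock factor gene hsf-1 and the HSP90 gene hsp-90 had values of 0.28 and 0.12 at H3 2 and were not called. By the adjusted p alone, hsp-17, another small heat shock protein gene (0.97, adjusted p = 0.0111 by limma), and the ubiquilin gene ubql-1 (0.61, adjusted p = 0.0107 by limma) passed as well at H3 2. They are named after their values were seen. With them, 5 of the 26 passed and were higher at H3 2 (1.1% of all probe sets). Of the 26, the hsp-16 pairs included, 7 to 9 had an unadjusted p under 0.05 (7.18%, 10.6%, 12.9% and 9.38% of all probe sets at H3 0.02, H3 0.2, H3 2 and in RE).

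No gene was called in the other 4 lists in any comparison with the control by limma. Of 29 genes of ER folding and the ER unfolded protein response, 5 to 7 had an unadjusted p under 0.05 (7.18%, 10.6%, 12.9% and 9.38% of all probe sets at H3 0.02, H3 0.2, H3 2 and in RE), and the list median was −0.04 to 0.14. Of 18 genes of mitochondrial folding and its unfolded protein response, 2 to 5 had such a p, and the list median was −0.20 to −0.08. Of 29 J-domain genes, 4 to 7 had such a p, and the list median was −0.11 to 0.02. The J-domain list shares 5 genes with the ER list and 2 with the mitochondrial list. By the adjusted p alone, 2 J-domain genes passed, both at H3 2 (2.76% of all probe sets passed there, and 1.1% passed and were higher), namely dnj-14 (0.75, adjusted p = 0.0205 by limma) and dnj-1 (0.59, adjusted p = 0.0407 by limma), which are likewise named after their values were seen. The 3 other HSP70 superfamily genes, T14G8.3, T24H7.2 and F11F1.1, had list medians of −0.11 to 0.08, and 1 of them had an unadjusted p under 0.05 at H3 0.02.

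**Figure D4:**
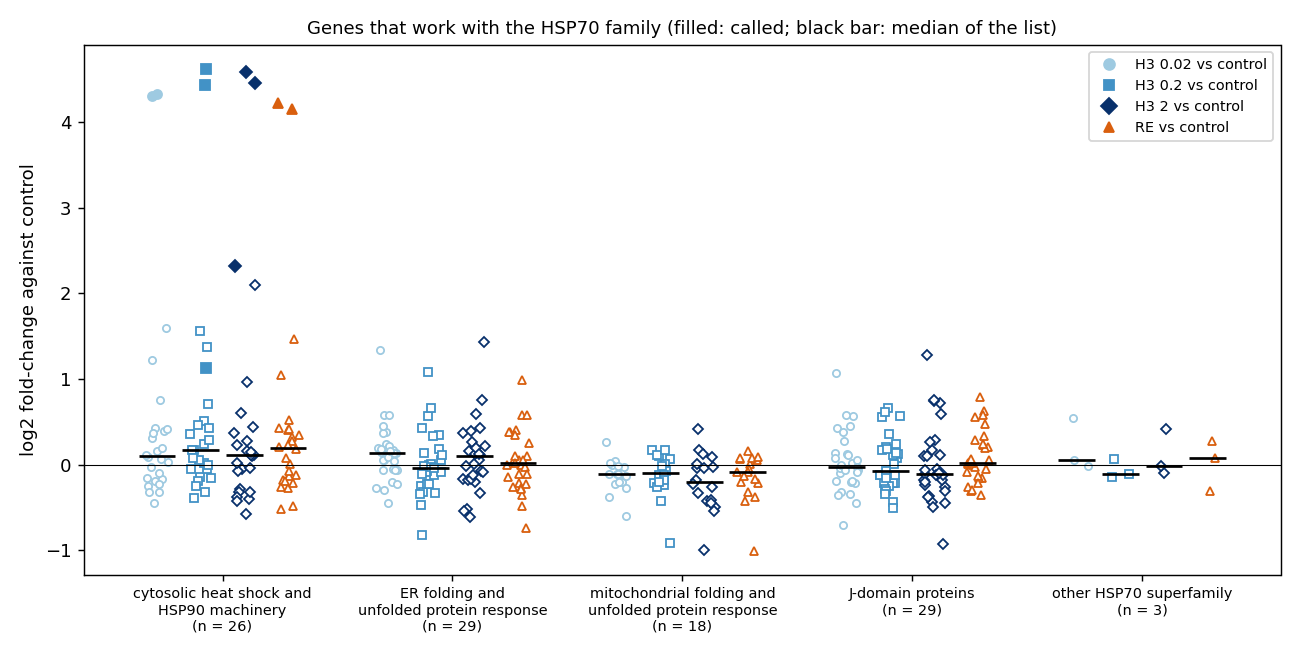
Log2 fold-change against the control for each gene or pair of the 5 lists of HSP70 partners, for H3 0.02, H3 0.2, H3 2 and RE, with filled symbols for called values and black bars for list medians. The 2 hsp-16 pairs lie at 4.16 to 4.63 in the cytosolic list, and no symbol is filled in the ER, mitochondrial, J-domain and other HSP70 lists.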

How the data were processed

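The authors normalised the arrays with RMA and quantile normalisation and deposited log2 expression values, which were used unchanged. No versions of RMA, Expression Console or Partek are given in the sources read here. Of 29317 probe sets, 25546 were annotated to 1 gene, 646 to several and 3125 to none, and all were tested. R 4.3.3 with limma 3.58.1 (lmFit with 1 mean per group, eBayes) and Python 3.11.15 with pandas 2.3.3 were used, and the fits were checked on simulated data.

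The members and lists were chosen with earlier results of these data known. After the files had been seen, an older list name was replaced by its current one and a duplicate dropped; 1 name, aip-1, stayed unmatched. Named genes are all members, up to 3 called genes per list and comparison with the largest t, and the 5 closest patterns. Same-numbered arrays deviated together among the control, H3 0.02 and H3 2 (residual r of 0.42 to 0.80) and between H3 0.2 and RE (0.45 to 0.77), where they also share the array set, but replicate 2 did not in the other comparisons (−0.59 to −0.44). Alternatives changed the test, variance trend, blocks, arrays, filters and centring. The interaction of treatment and array set was added after seeing the data.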

Additional observations from a re-analysis of the deposited data

How the results depend on the processing

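The 3 within-array differences kept their direction in all 51 alternatives. They were 2.94 to 3.11 from hsp-1, 2.92 to 3.25 from hsp-4 and 3.01 to 3.23 from hsp-6 when single arrays were left out. The exact permutation p stayed under the threshold throughout. With treated and control arrays fully apart, however, each omission had to give the smallest p that its arrangements allow. Centring an array cannot change a difference within it. These p-values thus add no support beyond the first test, which itself added none to the shifts. With the replicate number as a block, the counts of called members stayed at 1, 2, 1 and 1 at H3 0.02, H3 0.2, H3 2 and in RE, and at 0 between treatments; by the adjusted p alone it added hsp-110 at H3 0.2, H3 2 and in RE and changed no other pass. The counts were 0 in all 4 comparisons with the control where only probe sets of 1 gene were tested, which removes the F44E5.4/F44E5.5 pair, and in set B alone. With only the 6 arrays compared the count was 0 at H3 0.02 and 1 at H3 0.2. At H3 0.2 it was also 1 without dim probe sets, which removes the dimmer probe set, and 1 in set A alone, where its log2 fold-change was 0.90. Leaving out single arrays gave 1 to 2 at H3 0.2. By the adjusted p alone the count was 3 at H3 2. The causes were not tested where no construction is named.

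The sign turned for hsp-3 at H3 0.02 in set B alone (−0.02), for hsp-4 at H3 0.2 without H3 0.2 replicate 1 (−0.043, with −0.043 to 0.264 over all omissions of an array) and for hsp-3 in RE without RE replicate 1 (−0.033, with −0.033 to 0.304), none of them called. Of the other values of members, 580 kept direction and call, 10 lost a call (all of F44E5.4/F44E5.5) and 3 gained one without the fold threshold. The methods' Fisher test of least significant differences, run on the same values, gave the same counts, and hsp-6 passed its adjusted p at H3 2 (0.00663) without reaching 2-fold. Signal over background limits hsp-70, the dimmer probe set and the control values of the brighter one.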
